A study of Mus musculus with 79 samples.

Results

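The effect of chronic social defeat stress (CSDS) on the ventral hippocampus (vHipp) was taken as the difference between every vHipp library of a CSDS mouse and every vHipp library of a control (CTRL) mouse, with treatment held as a covariate. This selected 40 of the 79 RNA-seq libraries of the study, 20 from CSDS mice and 20 from CTRL mice, and 1 library came from each mouse. All mice were wild-type CD-1 (ICR) males aged 9 to 10 weeks. CSDS mice were defeated for 21 days by changing CD1 aggressors and went back to their own home cage group after each defeat, while CTRL mice were kept in groups in the same room. All mice were then recorded in the Social Box (SB), an enriched arena shared by 4 group mates. After 4 days of recording each mouse received a single intraperitoneal injection, either saline (10 CTRL and 10 CSDS mice) or 10 mg/kg of (R,S)-ketamine (10 CTRL and 10 CSDS mice), and tissue was taken 7 days later. The comparison therefore describes mice a week after an injection, and no library came from an undisturbed animal. The study used 10 SBs, each with mice of 1 stress group. The labels used here give neither the SB nor the social rank, so the SB could not be a covariate and runs of mouse numbers stood in for it.

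The ventral hippocampus links hippocampal circuits to the amygdala, hypothalamus and prefrontal cortex and is known for its part in anxiety-like behavior and in the control of the stress axis. Glucocorticoids released during stress act there through the receptors encoded by Nr3c1 and Nr3c2, and repeated stress in rodents is known to act on granule cells of the dentate gyrus, on neurotrophin signalling through Bdnf, and on microglia, astrocytes and the cells of small vessels.

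Total counts per vHipp library ranged from 16539848 to 41767119 in CTRL mice (median 20107756.5) and from 11782570 to 32814917 in CSDS mice (median 20191810.5), and mean log10 totals differed by -0.052 (two-sided permutation test, p = 0.117, n = 20 per group). The labelled region was checked with marker genes. Prox1, a transcription factor of dentate granule cells, had a median CPM (TMM-scaled read count relative to the library total) of 147.1 in vHipp against 23 in the medial prefrontal cortex (mPFC) libraries of the same study, and Tbr1, a transcription factor of cortical projection neurons, had 45.9 against 168, with no overlap of the 2 regions for either gene. The regions overlapped for Fezf2, Rorb and Syt6, also markers of cortical neurons, and Syt6 had medians of 15.5 in vHipp and 13 in mPFC. Wfs1, used as a marker of CA1, overlapped too and had 48.9 in vHipp against 155.6 in mPFC. Within vHipp, 3 CSDS libraries were left out in some of the fits. Mouse 11 (CSDS, ketamine) lay at 45 on the first principal component, which held 18.8% of the variance over 15531 genes, and the next library, mouse 17, lay at 22.9. Mice 9 and 13 (both CSDS, saline) had the highest summed levels of choroid plexus markers, at 994 and 209 CPM. The sum of mouse 13 was close to that of mouse 4, at 175 CPM. The counts of the main lists are given with and without them.

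No gene passed the threshold in the comparison of CSDS with CTRL. With p-values of edgeR's quasi-likelihood fit adjusted after Benjamini and Hochberg, 0 of 28991 genes were called (smallest adjusted p = 0.256). The count at an unadjusted p under 0.05 was 2798 (9.65%), split into 1530 (5.28%) with more and 1268 (4.37%) with fewer normalized counts under CSDS, and the median log2 fold change (LFC) of all genes was -0.002. Among the 15531 genes with a mean of at least 1 CPM the shares were 6.79% higher and 5.67% lower. Words such as higher and lower below refer to this unadjusted level, and each LFC is CSDS minus CTRL on the log2 scale. DESeq2 called 22 genes (0.0759%) at an adjusted p under 0.05, 17 higher and 5 lower, after its independent filter had left 1450 genes with an adjusted p. Of these 22 genes, 7 were encoded by the mitochondrial genome and 5 were pseudogenes that match mitochondrially encoded genes. The others included Brsk1, Snph and Ppp1r9b among the higher and Rhob, Auts2, Clstn2 and Tmem132a among the lower. When runs of 4 consecutive mouse numbers, used as a stand-in for the SB, entered limma-voom as a random effect, 1759 genes (6.07%) reached an unadjusted p under 0.05 and none the adjusted threshold (smallest adjusted p = 0.816).

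Kcns3 (chr12:11090202-11151056, GRCm38), which encodes a silent subunit that modifies Kv2 potassium channels, had the smallest p of the genes named here. It ranged from 4.11 to 8.26 CPM in CTRL mice (median 6.8) and from 6.85 to 10.5 CPM in CSDS mice (median 8.35). All 20 CSDS mice were above the CTRL median, although the groups overlapped. The LFC was 0.30 (SE 0.065, p = 3.15e-05, edgeR adjusted p = 0.256), and it was 0.29 without mice 9, 11 and 13. All 5 runs of CSDS mouse numbers had a mean above every one of the 5 CTRL runs. Kcns3 and the other genes named for a small p were chosen in these same libraries. Their counts of mice and runs follow partly from that choice and are no separate support.

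Among genes with lower counts, Efcc1, which encodes a protein with EF-hand and coiled-coil domains, ranged from 3.88 to 6.74 CPM in CTRL mice (median 5.45) and from 3.52 to 5.73 CPM in CSDS mice (median 4.57). The groups overlapped, and 19 of 20 CSDS mice were below the CTRL median. Its LFC was -0.29 (SE 0.065, p = 5.3e-05, edgeR adjusted p = 0.256), and all 5 CSDS runs lay below all CTRL runs. The other lower genes of smallest p had small changes that were shared by most CSDS mice. Auts2, a regulator of neuronal development and transcription, had a median of 192 CPM in CTRL mice (135.5 to 241.3) and 158 CPM in CSDS mice (113.99 to 211.2), with 18 of 20 CSDS mice below the CTRL median and an LFC of -0.25 (SE 0.069, p = 0.000661). Synpo2, an actin-binding protein, had an LFC of -0.40, Asxl3, a Polycomb-associated factor, -0.32, Magee2 -0.25, Cemip2, a cell-surface hyaluronidase, -0.24, Mex3b, an RNA-binding protein, -0.21, Pigb, an enzyme of GPI-anchor synthesis, -0.16, and Gmeb1, a protein that binds glucocorticoid modulatory elements, -0.12. For each of these 7 genes 17 or 18 of 20 CSDS mice were below the CTRL median.

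Higher genes outside the lists of cell type markers included Apln, the precursor of the apelin peptides. It ranged from 5.61 to 20 CPM in CTRL mice (median 14.5) and from 10 to 33.3 CPM in CSDS mice (median 18.2). The groups overlapped between 10 and 20 CPM, with 15 of 20 CSDS mice above the CTRL median and an LFC of 0.50 (SE 0.13, p = 0.000363). Dnaic1, a dynein chain of motile cilia, had an LFC of 0.49, Phkg1, a catalytic subunit of phosphorylase kinase, 0.35, and Sardh, a mitochondrial sarcosine dehydrogenase, 0.27. The plot of 12 named genes shows the individual mice.

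**Figure D1:**
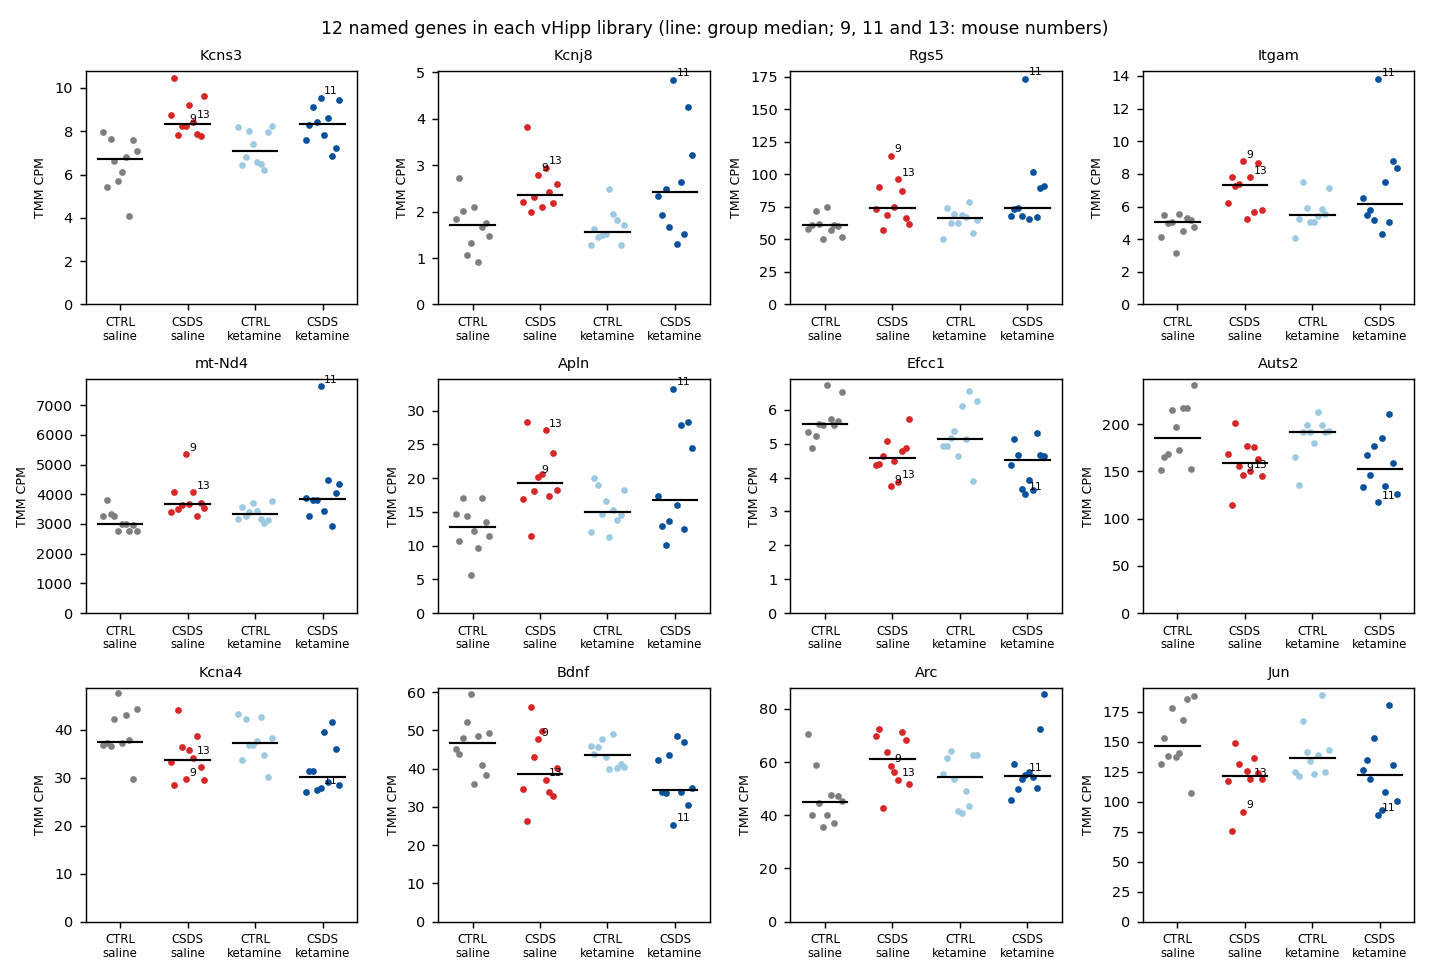
TMM-normalized CPM of 12 named genes in each of the 40 vHipp libraries, with a linear axis from 0, points for single mice in the 4 groups of 10, lines for group medians and numbers beside mice 9, 11 and 13. For Kcns3 every CSDS mouse lay above the CTRL median of 6.8 CPM, and for each gene shown the CSDS and CTRL values overlapped.

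Markers of microglia, astrocytes and vessel cells were higher in CSDS mice more often than lower. Of 18 microglia markers 12 (66.7%) were higher and 0 lower, beside 5.28% higher over all genes, and the median LFC of the list was 0.27. The summed level of these markers ranged from 290 to 491 CPM in CTRL mice (median 400) and from 348 to 1014.7 CPM in CSDS mice (median 447). Mouse 11 held the highest sum and mouse 17 the second at 609 CPM, mice 4, 9, 13, 14 and 20 were also above every CTRL mouse, and the remaining CSDS mice overlapped with CTRL. Fewer or more cells of a type and less or more RNA per cell cannot be told apart in punches of tissue. Itgam (chr7:128062640-128118491), the alpha chain of the microglial integrin CD11b, ranged from 3.15 to 7.5 CPM in CTRL mice (median 5.22) and from 4.3 to 13.8 CPM in CSDS mice (median 6.9). The highest value was that of mouse 11, and 17 of 20 CSDS mice were above the CTRL median (LFC 0.43, SE 0.10, p = 0.000131). Cx3cr1, the fractalkine receptor of microglia, had a median of 44.1 CPM in CTRL mice (27.4 to 51.4) and 47.4 CPM in CSDS mice (38.5 to 122.5), with an LFC of 0.33 (SE 0.094, p = 0.00116). Siglech, a lectin of microglia, had the same LFC of 0.33. Without mice 9, 11 and 13, 8 of the 18 markers were higher beside 3.55% of all genes, with a median LFC of 0.17. Itgam then had an LFC of 0.32 and Cx3cr1 of 0.21.

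Astrocyte markers followed the same direction, with 11 of 18 (61.1%) higher, 0 lower and a median LFC of 0.22. Their sum reached 16326 CPM in mouse 11 and 10056 CPM in mouse 17, against 5435 to 8218 CPM in CTRL mice. Acsbg1, an acyl-CoA synthetase of astrocytes, ranged from 81.6 to 140 CPM in CTRL mice (median 108.6) and from 96.6 to 244.6 CPM in CSDS mice (median 122.1), with an LFC of 0.27 (SE 0.080, p = 0.00148). Ppp1r3c, a glycogen-targeting subunit of protein phosphatase 1, had an LFC of 0.34 and Ntsr2, a neurotensin receptor of astrocytes, 0.25. Gfap, the intermediate filament used to mark reactive astrocytes, did not separate the groups, with medians of 223 CPM in CTRL and 240 CPM in CSDS mice and an LFC of 0.14 (SE 0.14, p = 0.329). Without mice 9, 11 and 13, 5 of 18 astrocyte markers were higher and their median LFC was 0.11.

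Vessel markers were higher as well. Of 18 endothelial markers 11 were higher and 0 lower (median LFC 0.25), and of 10 markers of pericytes and smooth muscle 6 (60%) were higher and 0 lower (median LFC 0.22). Rgs5 (chr1:169655501-169695813), a regulator of G protein signalling found in pericytes, ranged from 50.1 to 78.7 CPM in CTRL mice (median 62.3) and from 57.6 to 174 CPM in CSDS mice (median 74.1). The highest CSDS value was that of mouse 11, 18 of 20 CSDS mice were above the CTRL median, and the LFC was 0.40 (SE 0.091, p = 7.55e-05). Kcnj8, the pore of the ATP-sensitive potassium channel of pericytes, ranged from 0.922 to 2.72 CPM in CTRL mice (median 1.65) and from 1.31 to 4.84 CPM in CSDS mice (median 2.38), with an LFC of 0.62 (SE 0.13, p = 3.37e-05). Abcc9, which encodes the partner of that channel, had an LFC of 0.38. The contractile genes of smooth muscle in the list were not among the higher ones, with LFCs of -0.15 for Acta2 (p = 0.474), -0.08 for Tagln (p = 0.679) and 0.06 for Myh11 (p = 0.723). For both Rgs5 and Kcnj8 all 5 CSDS runs lay above all CTRL runs. For the mean of the whole pericyte and smooth muscle list, 3 CSDS runs were above and 1 was below every CTRL run. Flt1, a vascular endothelial growth factor receptor, had medians of 56.3 CPM in CTRL and 62.9 CPM in CSDS mice (LFC 0.28, p = 0.00586). Without mice 9, 11 and 13 the LFC of Kcnj8 was 0.54 and that of Rgs5 0.25, while 2 of 18 endothelial and 4 of 10 mural markers were higher. Without mouse 11 alone 10 microglia, 9 astrocyte, 6 endothelial and 5 mural markers were higher, beside 1304 of all 28918 genes tested.

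Markers of oligodendrocyte precursors and myelin genes differed in their counts. Of 10 precursor markers 4 (40%) were higher and 0 lower, beside 5.28% higher over all genes (median LFC 0.14). Among them were Gpr17, a receptor of cells committed to differentiation, at 0.24 and Vcan, the proteoglycan versican, at 0.21. Without mouse 11 this count was 1, without mice 9, 11 and 13 it was 0, and with the runs as a random effect it was 1. None of 20 myelin genes was higher or lower in CSDS mice (median LFC -0.009), and Mbp, myelin basic protein, had an LFC of 0.00. With the mean dentate and CA1 marker levels as covariates the myelin median was -0.155, and again none was higher or lower. Of 16 genes of extracellular matrix and perineuronal nets 4 (25%) were higher, with Bcan, brevican, at 0.23 and Ncan, neurocan, at 0.21. This count was 1 without mouse 11, without mice 9, 11 and 13, and with the runs as a random effect. The plot of gene lists sets these groups side by side.

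**Figure D2:**
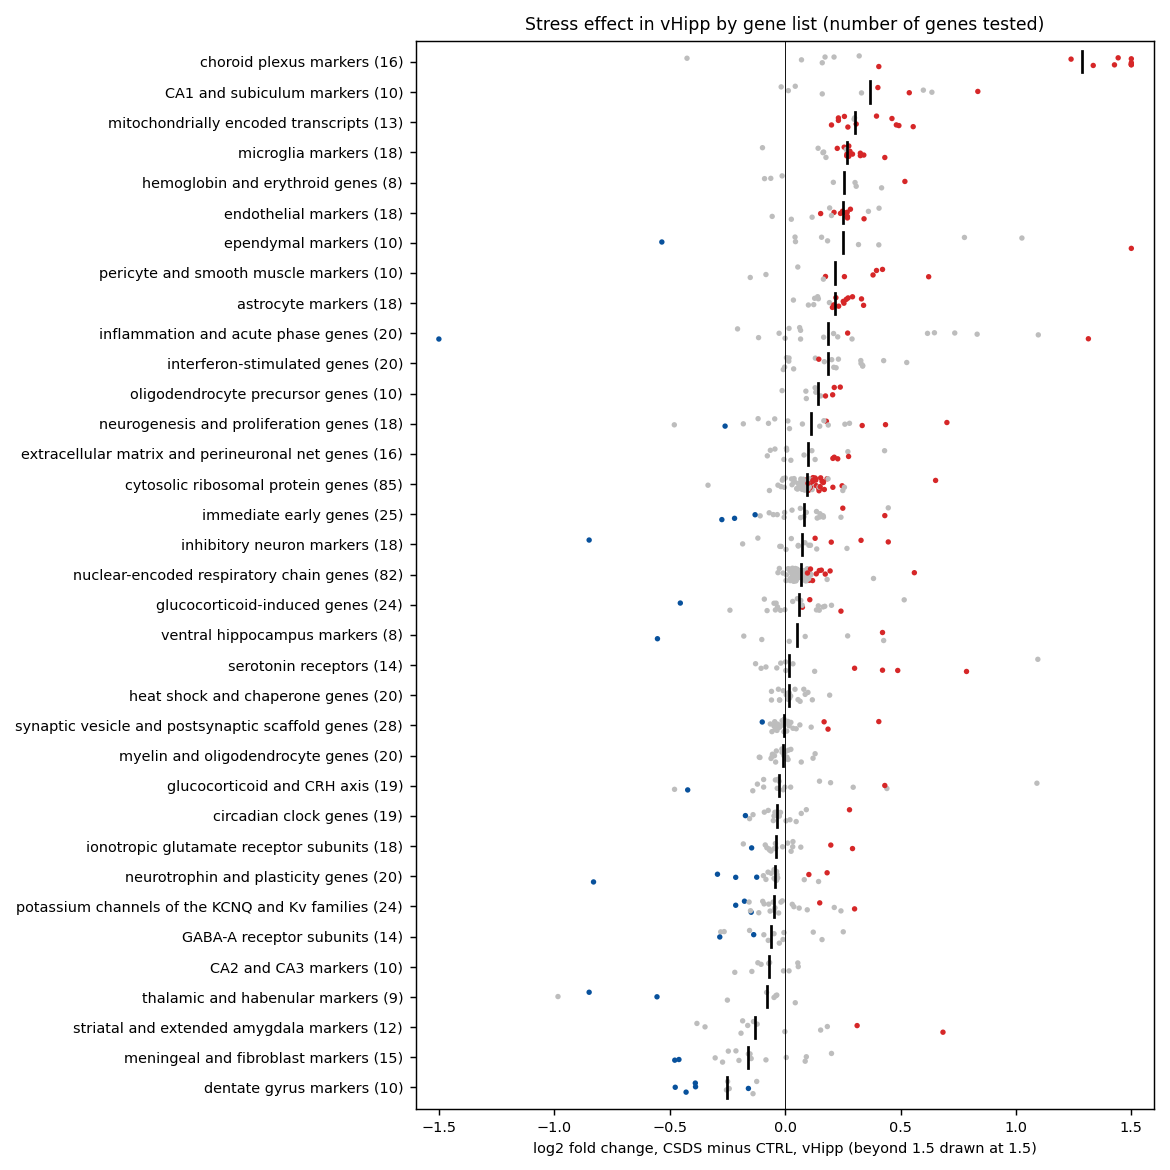
LFC of CSDS minus CTRL in vHipp for the members of each gene list, with the number of genes tested in parentheses, 1 point a gene (red higher, blue lower at an unadjusted p under 0.05, gray neither), black bars for list medians, and values beyond 1.5 drawn at 1.5. Markers of microglia, astrocytes, endothelium and pericytes and the mitochondrially encoded transcripts lay mostly above 0, dentate gyrus markers lay below 0, and myelin genes centered near 0 with a median of -0.009.

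**Figure D3:**
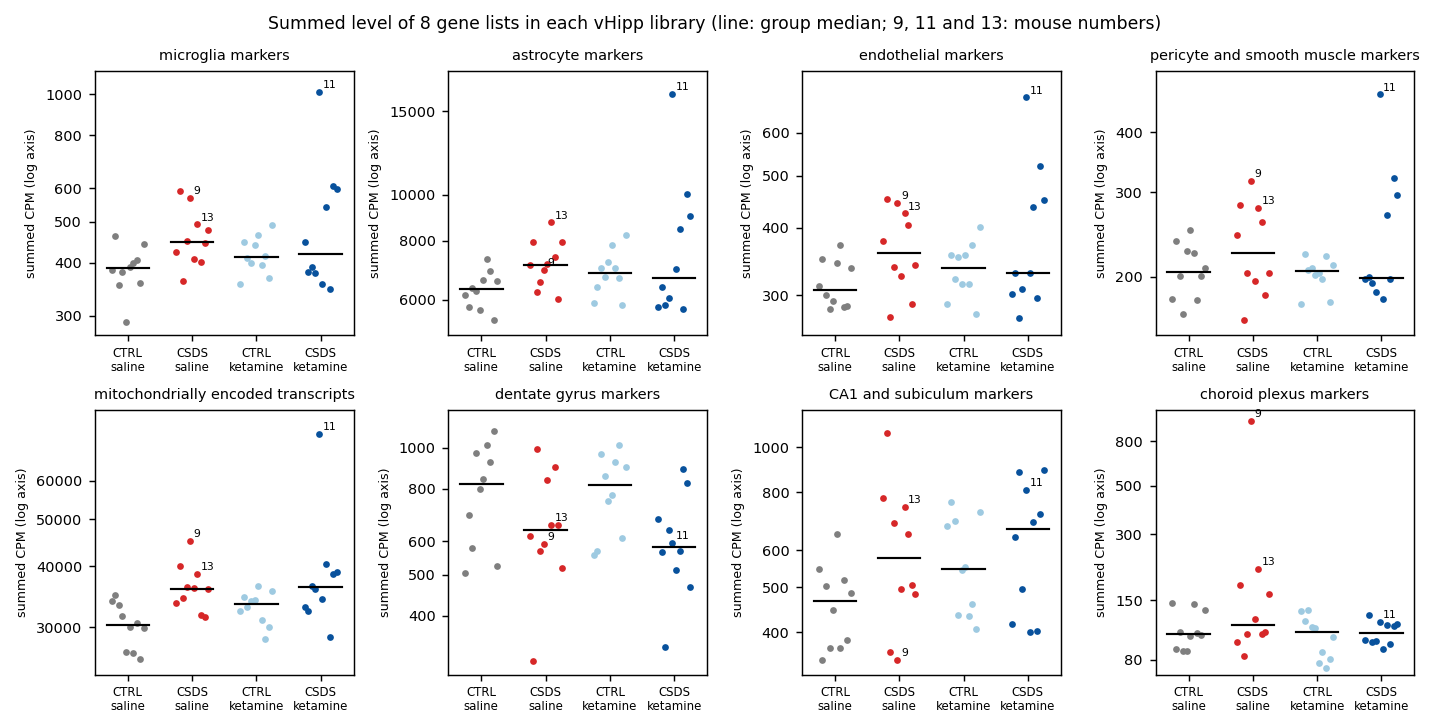
Summed CPM of 8 gene lists in each of the 40 vHipp libraries on a log axis, with points for single mice in the 4 groups of 10, lines for group medians and numbers beside mice 9, 11 and 13. Mouse 11 held the highest microglia sum (1014.7 CPM) and mouse 9 the highest choroid plexus sum (994 CPM).

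Mitochondrially encoded transcripts had the largest share of higher genes among the 35 lists, at 11 of 13 (84.6%) with 0 lower and a median LFC of 0.30. Their sum ranged from 25774 to 36499 CPM in CTRL mice (median 32026) and from 28622 to 74827 CPM in CSDS mice (median 35964). The highest values were those of mouse 11 and, at 45136 CPM, mouse 9. mt-Nd4 (MT:10167-11544), a subunit of complex I, ranged from 2753 to 3799 CPM in CTRL mice (median 3207) and from 2946 to 7632 CPM in CSDS mice (median 3755). Of 20 CSDS mice 19 were above the CTRL median, and the LFC was 0.31 (SE 0.074, p = 0.000149) and 0.20 without mice 9, 11 and 13. mt-Co2, a subunit of complex IV, ranged from 148.02 to 366.3 CPM in CTRL mice (median 252) and from 155 to 619 CPM in CSDS mice (median 360), with an LFC of 0.56 (SE 0.13, p = 9.53e-05). Without the 3 mice 8 of 13 transcripts were higher and the median LFC was 0.18.

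The 5 pseudogenes called by DESeq2 carry predicted-gene names, lie on nuclear chromosomes and each match a gene of this genome. Where the sequences are the same, reads could be counted for either copy, so the values of both are uncertain. Gm28661 (chr1:24614885-24615565) shared all 632 of its 50-base windows with mt-Co2, and Gm10925 and Gm28437 likewise shared 100% of theirs with mt-Atp6 and mt-Co3. Gm29216 (chr1:24615706-24616197) shared 97.1% with mt-Co1 and Gm13340 on chromosome 2 only 27.5%. The first 60 bases of Gm28661 and the matching stretches of Gm29216 and mt-Co1 show why, with capitals marking the bases that differ between the latter pair. Sequences are from the GENCODE release 21 transcripts of GRCm38, written 5′ to 3′.
Gm28661 and mt-Co2, from base 1 of each: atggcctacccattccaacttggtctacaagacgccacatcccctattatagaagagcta
Gm29216, from base 1: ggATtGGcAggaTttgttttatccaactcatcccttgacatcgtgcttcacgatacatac
mt-Co1, the matching stretch: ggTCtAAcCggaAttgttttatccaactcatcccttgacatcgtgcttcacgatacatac
A read of the first stretch could come from either gene, while reads over the first bases of the second pair can be told apart.

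Nuclear genes for translation and respiration moved less. Of 85 cytosolic ribosomal protein genes 31 (36.5%) were higher and 0 lower, and 78 had an LFC above 0, but the median LFC was 0.10. Rpl23a, a protein of the large ribosomal subunit, ranged from 88.2 to 140.97 CPM in CTRL mice (median 107.5) and from 100.7 to 141.8 CPM in CSDS mice (median 121.8), with 18 of 20 CSDS mice above the CTRL median and an LFC of 0.16 (SE 0.050, p = 0.00265). Rpsa, of the small subunit, had an LFC of 0.21. Of 82 nuclear-encoded respiratory chain genes 11 (13.4%) were higher and 0 lower (median LFC 0.07, 79 above 0), including Ndufb9 of complex I at 0.19 and Cox6a1 of complex IV at 0.16. Without mice 9, 11 and 13, 28 ribosomal and 18 respiratory genes were higher. The respiratory count was 22 without mouse 11, 23 with library quads as covariate, 5 with the mean dentate and CA1 marker levels as covariates, 1 in saline mice only and 4 in ketamine mice only.

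Genes that mark the hippocampal subfields differed in opposite directions. Of 10 dentate gyrus markers 5 (50%) were lower and 0 higher, beside 4.37% lower over all genes, and the LFC of every tested marker was below 0 (median -0.25). Their sum ranged from 504 to 1096 CPM in CTRL mice (median 820) and from 312 to 992 CPM in CSDS mice (median 606), so that the groups overlapped. Prox1 (chr1:190118035-190170714) ranged from 99.4 to 279 CPM in CTRL mice (median 207) and from 47.8 to 243 CPM in CSDS mice (median 130), with 17 of 20 CSDS mice below the CTRL median and an LFC of -0.43 (SE 0.15, p = 0.00695). C1ql2, a secreted synaptic organizer of mossy fibers, had medians of 67.5 CPM in CTRL mice (35.9 to 116.2) and 49.5 CPM in CSDS mice (19.7 to 72.7), with 18 of 20 CSDS mice below the CTRL median and an LFC of -0.48 (SE 0.14, p = 0.00149). Stxbp6, the SNARE-binding protein amisyn, had an LFC of -0.39.

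Of 10 CA1 and subiculum markers 3 were higher and 0 lower, and the median LFC was 0.37. The count of higher markers was 1 with the runs as a random effect, 5 in saline mice only and 0 in ketamine mice only. The sum ran from 349 to 761 CPM in CTRL mice (median 494) and from 349 to 1073.98 CPM in CSDS mice (median 646). Mpped1, a phosphodiesterase family member, ranged from 36.4 to 142.45 CPM in CTRL mice (median 76.7) and from 37.2 to 233 CPM in CSDS mice (median 105.4), with an LFC of 0.54 (SE 0.20, p = 0.0104). Fibcd1, a chitin-binding receptor, had an LFC of 0.84 and Man1a, a mannosidase, 0.40. None of 10 CA2 and CA3 markers was higher or lower (median LFC -0.07). Without mice 9, 11 and 13, 5 dentate markers were lower, beside 3.58% of all genes, with a median LFC of -0.26, and 2 CA1 markers higher. The share of each subfield in a punch was not measured otherwise, and its part in the other results was not tested directly. With the mean dentate and CA1 marker levels of each library as covariates, 1720 genes in all had an unadjusted p under 0.05 (3.56% higher, 2.38% lower), and 7 microglia, 6 astrocyte, 6 endothelial and 9 mitochondrially encoded genes were higher.

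The choroid plexus list rested on a pair of libraries. Ttr, transthyretin, which choroid plexus secretes into cerebrospinal fluid, ranged from 0 to 7.61 CPM in CTRL mice (median 0.181) and from 0 to 654 CPM in CSDS mice (median 0.328). The highest value was that of mouse 9, and the fitted LFC of 4.71 (SE 1.1, p = 0.000166) was -0.13 without mice 9, 11 and 13. Of 16 choroid plexus markers 10 were higher with all libraries, and 0 were higher without mice 9 and 13, with a median LFC of 1.29 with and 0.007 without them. Markers of neighbouring tissue gave small counts. Of 9 thalamic and habenular markers 2 (22.2%) were lower, and the summed level had a median of 152.6 CPM in CTRL mice (49.5 to 328.7) and 100.5 CPM in CSDS mice (52.6 to 212.7). The count was 3 without mice 9, 11 and 13. Of 12 striatal and amygdala markers 2 (16.7%) were higher, although the median LFC was -0.13. This median was -0.019 in ketamine mice only, and 0.056 with the subfield covariates, where 3 markers were higher and 1 lower. Of 15 meningeal markers 2 (13.3%) were lower (median LFC -0.16). Ependymal markers, with 1 of 10 higher and 1 lower, and hemoglobin genes, with 1 of 8 higher, had median LFCs of 0.25 and 0.26, but the hemoglobin median was 0.45 in saline and 0.03 in ketamine mice and 0.04 with the subfield covariates. Of 8 ventral hippocampus markers 1 was higher and 1 lower. Both ependymal calls were lost without mice 9 and 13, and both ventral hippocampus calls without mice 9, 11 and 13. The part of neighbouring tissue in the other results was not tested.

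Among potassium channel and neurotrophin genes the shares of lower genes were above the background, on 3 and 4 genes. Of 24 potassium channel genes of the KCNQ and Kv families 2 (8.33%) were higher and 3 (12.5%) lower (median LFC -0.05). Among all genes of at least 1 CPM 6.79% were higher and 5.67% lower. Kcna4, a Kv1 channel of axons, ranged from 29.7 to 47.8 CPM in CTRL mice (median 37.4) and from 27 to 44 CPM in CSDS mice (median 31.8), with 16 of 20 CSDS mice below the CTRL median and an LFC of -0.21 (SE 0.060, p = 0.00083). Of 20 neurotrophin and plasticity genes 2 (10%) were higher and 4 (20%) lower, with a median LFC of -0.05. The mean of the members' log2 levels was lower in all 5 CSDS runs than in every CTRL run. The summed CPM of the list, which its most abundant members set, had a median of 10132 in CTRL and 10409 in CSDS mice. The count of lower genes fell to 1 with the subfield covariates, 0 in saline mice only and 1 in ketamine mice only. Bdnf (chr2:109674700-109727007), brain-derived neurotrophic factor, ranged from 35.9 to 59.5 CPM in CTRL mice (median 44.5) and from 25.3 to 56.1 CPM in CSDS mice (median 35.9). The groups overlapped, 15 of 20 CSDS mice were below the CTRL median, and the LFC was -0.21 (SE 0.074, p = 0.00604). It was -0.20 without mice 9, 11 and 13. Ntrk2, its receptor TrkB, had an LFC of 0.08 (p = 0.177), Adcyap1, the neuropeptide PACAP, -0.83 (p = 0.0155), and Camk2a, a kinase of the postsynaptic density, 0.18 (p = 0.0135).

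Of 25 immediate early genes 2 (8%) were higher and 3 (12%) lower, beside 5.28% and 4.37% of all genes. Arc, an effector of synaptic plasticity, ranged from 35.5 to 70.5 CPM in CTRL mice (median 47.4) and from 42.6 to 85.5 CPM in CSDS mice (median 56.3), with 18 of 20 CSDS mice above the CTRL median and an LFC of 0.25 (SE 0.083, p = 0.00427). Jun, a subunit of the AP-1 transcription factor, had medians of 139.8 CPM in CTRL mice (106.9 to 189.5) and 121.5 CPM in CSDS mice (75.5 to 181), with 17 of 20 CSDS mice below the CTRL median and an LFC of -0.27 (p = 0.0015). Fos had an LFC of 0.17 (p = 0.372) and Npas4 of 0.08 (p = 0.614). Arc and Jun thus had LFCs of opposite sign, but with the subfield covariates no immediate early gene was higher or lower, Arc then having an LFC of 0.15 (p = 0.0611) and Jun of -0.12 (p = 0.0748). Without mouse 11, 4 of the 25 genes were higher and 2 lower.

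Among synaptic and receptor genes the shares of higher genes were largest for serotonin receptors and inhibitory neuron markers. Of 28 synaptic vesicle and scaffold genes 3 (10.7%) were higher and 1 (3.57%) lower, beside 5.28% and 4.37% of all genes. Homer2 had an LFC of 0.41, Shank1 of 0.19 and Shank3 of 0.17, all scaffolds of the postsynaptic density. Syn1, a vesicle phosphoprotein, had -0.02. Of 18 ionotropic glutamate receptor subunits 2 (11.1%) were higher and 1 (5.56%) lower, and the subunits Gria1, Gria2 and Grin2b had LFCs of -0.07, -0.08 and -0.09. Of 14 GABA-A subunits 2 (14.3%) were lower, namely Gabrd (-0.28), the extrasynaptic delta subunit abundant in dentate granule cells, and Gabra4 (-0.14), its common partner. With the subfield covariates, or in either treatment alone, 0 of these subunits were lower. The median LFC of the GABA-A list was -0.061, and it was -0.055 with the covariates, -0.058 in saline mice only and -0.068 in ketamine mice only. Of 18 inhibitory neuron markers 4 (22.2%) were higher and 1 lower, with Vip at 0.45, Pvalb at 0.33 and Calb2, calretinin, at -0.85. Without mouse 11 only 2 were higher, with the random effect 2, and with the subfield covariates 0. The median LFC of these markers was 0.072, and it was 0.055, 0.066 and 0.068 in these fits. Of 14 serotonin receptors 4 (28.6%) were higher, including Htr3a (0.30), the subunit of the serotonin-gated channel, and Htr5b (0.79), while Htr1a had an LFC of 0.00. This count was 1 in limma-voom, 2 without mice 9, 11 and 13 and 0 with the subfield covariates. Of 18 neurogenesis genes 4 (22.2%) were higher and 1 (5.56%) lower, and Dcx, the marker of newborn neurons, had an LFC of 0.01. The neurogenesis counts were 0 higher and 2 lower without mouse 11, 0 and 0 without mice 9, 11 and 13, and 1 and 1 in limma-voom. Of 19 clock genes 1 was higher and 1 lower. The higher genes without mice 9, 11 and 13 numbered 1 for the synaptic list, 0 for the glutamate receptors, 0 for the clock genes and 0 for the neurotrophin and plasticity genes.

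Genes of the stress axis gave small counts. Of 24 glucocorticoid-induced genes 3 (12.5%) were higher and 1 (4.17%) lower, beside 5.28% and 4.37% of all genes (median LFC 0.06). Of 19 tested genes of the glucocorticoid and CRH axis 1 (5.26%) was higher and 1 (5.26%) lower (median LFC -0.03). Fkbp5, a chaperone that dampens the glucocorticoid receptor and is induced by it, ranged from 51.3 to 76.6 CPM in CTRL mice (median 68.2) and from 48.3 to 78.7 CPM in CSDS mice (median 67.4). Its LFC was -0.04 (SE 0.049, p = 0.394). Nr3c1, the glucocorticoid receptor, had medians of 72.4 and 71.8 CPM in CTRL and CSDS mice and an LFC of -0.03 (SE 0.071, p = 0.666), and Nr3c2, the mineralocorticoid receptor, an LFC of -0.03. Within the CRH system, Crhr2, a receptor of urocortins, had an LFC of -0.42 (p = 0.0101) and Crhbp, the binding protein of CRH, 0.43 (p = 0.038). Of 20 inflammation genes 2 (10%) were higher and 1 (5%) lower, of 20 interferon-stimulated genes 1 (5%) was higher, and of 20 heat shock genes none was higher or lower. Leaving out mice 9, 11 and 13 left 1 glucocorticoid-induced gene (0 with the runs as a random effect or with the subfield covariates), 0 inflammation genes and 0 interferon-stimulated genes higher.

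The stress difference was then taken within each treatment. Among saline-treated mice 1615 genes (5.57%) had an unadjusted p under 0.05, and among ketamine-treated mice 1572 (5.42%). Both sets shared 192 genes, which is 11.9% of the saline set and 12.2% of the ketamine set, and 164 of them had the same direction. Across the 15531 genes of mean CPM of at least 1, which are not independent replicates, the LFCs of the 2 treatments had a Pearson r of 0.477 and a Spearman rho of 0.486, and 69% had the same sign. No mouse was in both strata. The interaction of stress and treatment gave 0 genes at the adjusted threshold in edgeR (smallest adjusted p = 1) and 823 (2.84%) at an unadjusted p under 0.05.

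Most named groups had the same direction in both treatments. Microglia markers had a median LFC of 0.25 in saline and in ketamine mice, with 6 and 8 of 18 higher beside 3.07% and 2.81% of all genes. Fitted in each treatment alone these counts were 10 and 4, so their order depended on the fit. Kcnj8 had LFCs of 0.60 and 0.65, mt-Nd4 0.31 in both, Auts2 -0.25 in both and Bdnf -0.20 and -0.23. Kcnj8, mt-Nd4 and Auts2 were named for a small p in the same mice pooled. A shared direction was therefore partly set by that choice and is no separate support. Kcns3 had 0.41 in saline and 0.19 in ketamine mice, with an interaction p of 0.102, and Arc had 0.38 and 0.12, with an interaction p of 0.118. Ribosomal protein genes were higher in 21 cases in saline and 3 in ketamine mice, dentate markers lower in 1 and 4, beside 2.5% and 2.61% of all genes, and CA1 markers higher in 5 and 0, with a median LFC of 0.59 and 0.13. These counts do not show that the treatments differed, since at most 1 member in any of these lists had an unadjusted interaction p under 0.05. Ttr had LFCs of 6.12 and 1.07 with an interaction p of 0.0243, and mice 9 and 13 were both in the saline group.

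**Figure D4:**
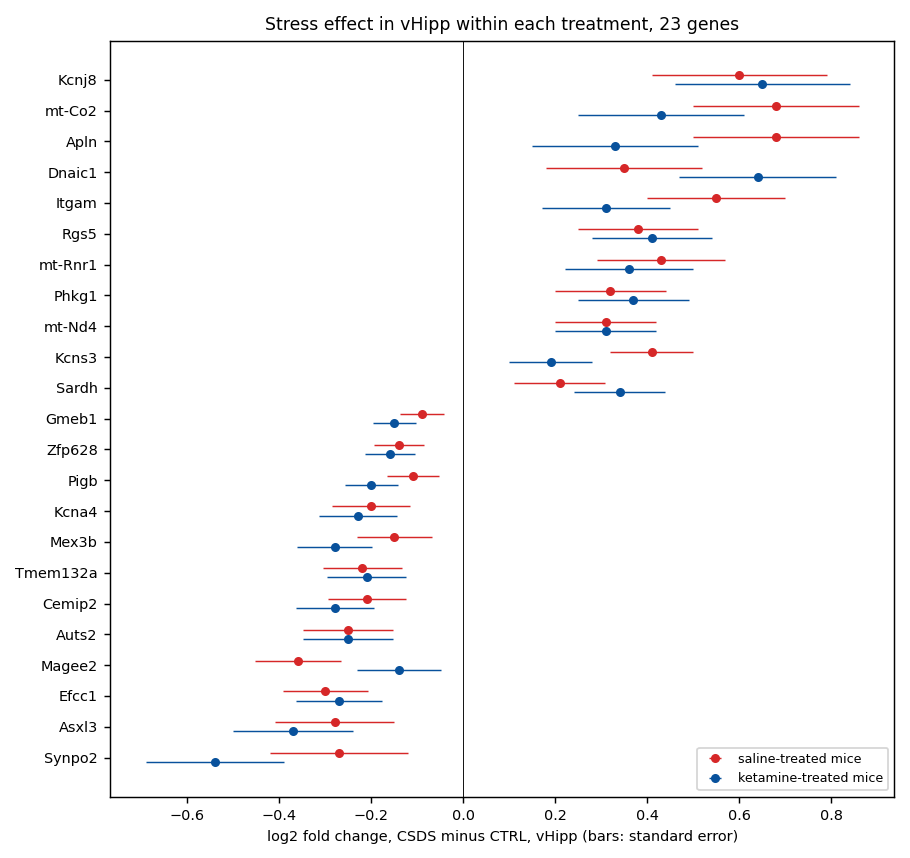
LFC of CSDS minus CTRL in vHipp within saline-treated and ketamine-treated mice for the named genes of smallest p other than Ttr, with red points for saline, blue points for ketamine and bars for the standard error. Kcnj8 lay at 0.60 and 0.65, while Kcns3 lay at 0.41 in saline and 0.19 in ketamine mice. The genes were chosen by p in the pooled mice, which partly sets a shared direction.

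The mPFC libraries of the same study served to show where vHipp differed. There, 0 of 28993 genes passed the adjusted threshold in edgeR (smallest adjusted p = 1), and 920 (3.17%, 1.45% higher and 1.72% lower) had an unadjusted p under 0.05, against 9.65% in vHipp. Median LFCs in mPFC were 0.02 for microglia markers, 0.01 for astrocyte markers, -0.02 for endothelial markers and -0.03 for mitochondrially encoded transcripts. Immediate early genes had a median of 0.09 in mPFC and 0.08 in vHipp, myelin genes 0.10 and -0.009, and ependymal markers -0.14 and 0.25. For immediate early genes the vHipp median depended on the fit. It was 0.027 in limma-voom, 0.041 in saline mice only, 0.029 in ketamine mice only, -0.004 with the subfield covariates and 0.123 without mice 9, 11 and 13. The difference of the stress effect, mPFC minus vHipp, was tested with both regions in 1 model. It passed the adjusted threshold for 1 of 31534 genes (0.00317%), the predicted gene Gm15478 (chr5:67642401-67646776, LFC -4.40, SE 0.84, edgeR adjusted p = 0.038), and 2112 genes (6.7%) had an unadjusted p under 0.05. Mouse numbers paired the libraries of the 2 regions, and with mouse as a replicate block over 39 mice 0 genes passed and 2466 (7.83%) had an unadjusted p under 0.05, Gm15478 then having an LFC of -3.97 and an adjusted p of 0.379.

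The genes named first in vHipp were chosen by their small p there, and the difference between the regions contains that same effect, so its values are given for them without a p. Kcns3 had an LFC of -0.10 in mPFC and its stress effects differed by -0.39. Efcc1 had 0.02 in mPFC and a difference of 0.32, and mt-Co2 had -0.13 and a difference of -0.67. Bdnf, chosen for its known role with earlier results of these data in view, had 0.01 in mPFC and a difference of 0.23. That difference contains the vHipp effect already seen, so it is given without a p too. Apln had an LFC of 0.31 in mPFC and a difference of -0.18. For Arc the LFC was 0.38 in mPFC, and a difference between the regions was not detectable (0.14, p = 0.516). Of the lists, which contain vHipp effects already seen to be high or low, 7 microglia, 6 astrocyte, 6 endothelial and 9 mitochondrially encoded genes had a lower effect in mPFC, beside 3.23% of all genes, and 6 dentate markers a higher one, beside 3.47%. With the mouse block these counts were 9, 6, 7 and 12, beside 3.04% of all genes, and 6, beside 4.79%.

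**Figure D5:**
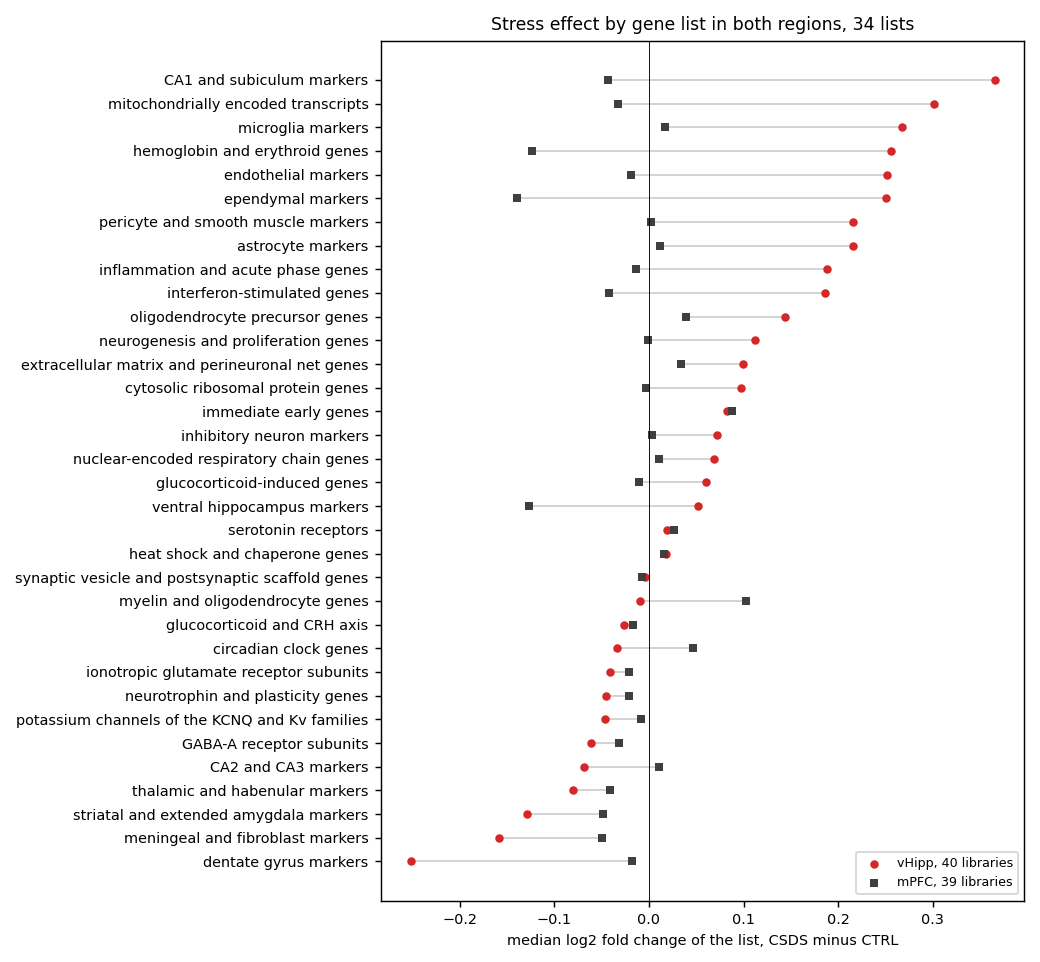
Median LFC of CSDS minus CTRL for the members of each gene list in vHipp (red circles) and in mPFC (black squares), without the choroid plexus list. Microglia markers lay at 0.27 in vHipp and 0.02 in mPFC, and mitochondrially encoded transcripts at 0.30 and -0.03.

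Runs of consecutive mouse numbers gave the coarsest view, with 5 CSDS and 5 CTRL runs. The mean level of microglia markers was above every CTRL run in 4 of 5 CSDS runs, and the same held for mitochondrially encoded transcripts. For astrocyte and endothelial markers 4 CSDS runs were above and 1 was below every CTRL run. For pericyte and smooth muscle markers 3 CSDS runs were above and 1 was below every CTRL run. Dentate markers were below every CTRL run in 2 CSDS runs, and CA1 markers above in 3 and below in 1. Bdnf was below every CTRL run in 4 of 5 CSDS runs.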

How the data were processed

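The authors punched vHipp and mPFC with a 1 mm needle from 200 µm slices, kept RNA with an integrity number of at least 8 and prepared stranded mRNA libraries for paired sequencing. The submitters' processing notes name CASAVA, bcl2fastq 2.20.0.422 and GRCm38, and the aligner and counter are not given in the sources used here. The authors deposited raw read counts per gene, without normalization, in 1 table. The study fitted DESeq2 with the SB as covariate. Here the SB is not in the labels and holds 1 stress group, so treatment was the covariate.

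Symbols and coordinates came from the GENCODE release 21 annotation (55144 of 55471 gene identifiers matched, 327 did not). Genes with more than 10 counts in total and counts in more than 3 libraries were tested with edgeR 4.0.16 (quasi-likelihood, TMM, Benjamini-Hochberg, adjusted p under 0.05) in R 4.3.3. DESeq2 1.42.0, limma 3.58.1 and scipy 1.17.1 were used besides. The tests were tried on simulated data. CPM are TMM-normalized. No 2 libraries held identical counts, and precision follows the totals of 11782570 to 41767119 counts per vHipp library. Nothing beyond the mouse number says how mice relate. The main fits treat the mice of a group as independent. Each SB held 1 stress group and mice of 1 SB are not independent, so the p-values may be too small for a stress effect.

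Named were the 12 higher and 12 lower genes of smallest p at a mean CPM of at least 1, leaving out predicted genes, a set of stress and plasticity genes, and up to 3 members of each list at an unadjusted p under 0.05, 130 in all. The gene lists and members were chosen with earlier results of these data known, and several lists share genes. The mPFC and vHipp libraries of a mouse share its number in the labels: over 39 mice and 9897 genes the deviations from the group means had a median correlation of 0.319 within a mouse and -0.00787 between mice, the lowest within a mouse being -0.102. Alternatives were other tools, normalizations, filters, covariates, a random effect of runs of 4 mouse numbers, each treatment alone, and leaving out mice 9 and 13. Leaving out mouse 11 or mice 9, 11 and 13, marker levels as covariates and run means were added after seeing the data.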

Additional observations from a re-analysis of the deposited data

Results flagged for a closer look

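In each of the 4 groups of 10 mice the highest and lowest value of 34 quantities was set against Dixon's 95% critical value for a gap, which chance passes in about 1 of 20 groups. Of the 23 values that stood apart, 9 were from mouse 11 and 4 from mouse 9. In mouse 11 (CSDS, ketamine) these were the sums of microglia (1014.7 CPM, next 609), astrocyte (16326, next 10056) and pericyte and smooth muscle markers (480, next 321) and of mitochondrially encoded transcripts (74827, next 40498), and Rgs5 at 174 CPM (next 101.9), Itgam at 13.8 (next 8.78), mt-Nd4 at 7632 (next 4463), Cx3cr1 at 122.5 (next 70.4) and Acsbg1 at 245 (next 172). In mouse 9 (CSDS, saline) they were the choroid plexus sum at 994 CPM (next 209), Ttr at 654 (next 66.1), mt-Co2 at 619 (next 383) and mt-Nd4 at 5348 (next 4069). The part of these libraries in the results is given by the values without them in the report.

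The other values that stood apart were single genes, totals or a list sum. Total counts were 32814917 in mouse 16 (CSDS, ketamine, next 22393004) and 41767119 in mouse 21 (CTRL, ketamine, next 29245728). Ttr stood at 9.5 CPM in mouse 1, 3.49 in mouse 31 and 7.61 in mouse 38, Kcnj8 at 3.82 in mouse 4, C1ql2 at 116.2 in mouse 36, Mpped1 at 142.2 in mouse 30, and the ribosomal protein sum at 9044 in mouse 24. Cx3cr1 at 27.4 in mouse 29 was low, the next value being 36.4.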

How the results depend on the processing

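The count of genes past the adjusted threshold was 0 under every alternative except DESeq2, which called 22. At an unadjusted p under 0.05, the 2798 genes became 1759 with runs of mouse numbers as a random effect, 1570 in saline mice only, 1204 in ketamine mice only and 1720 with subfield marker levels as covariates. Within treatments, edgeR's filterByExpr left 973 genes in saline and 972 in ketamine mice. The interaction count of 823 became 523 in DESeq2, 1338 without a filter and 262 with filterByExpr, and the 164 genes of shared direction became 91 without mice 9 and 13. With mouse as a replicate block the region difference gave 0 genes past the adjusted threshold instead of 1 and 2466 at the unadjusted level. FilterByExpr gave 0 and 1167.

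List counts moved as follows. Microglia markers gave 4 in ketamine mice only and 7 with the covariates. Astrocyte markers gave 2 in ketamine mice only, 5 without mice 9, 11 and 13 and 6 with the covariates. Endothelial markers gave 6 in voom, with the random effect, in saline mice only, without mouse 11 and with the covariates, 7 in voom with library weights and without mice 9 and 13, and 2 in ketamine mice only and without mice 9, 11 and 13. Mitochondrially encoded transcripts gave 4 in ketamine mice only. Ribosomal protein genes gave 20 in saline mice only, 3 in ketamine mice only and 18 with the covariates. Lower dentate markers numbered 8 in voom with weights, 3 with the random effect, 1 in saline mice only and 0 with the covariates, and higher CA1 markers 1 with the random effect, 5 in saline mice only, 0 in ketamine mice only and 0 with the covariates. The covariates are the mean levels of these same dentate and CA1 markers, so both zeros follow from how they were built.

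List medians moved for choroid plexus markers to 0.274 in DESeq2, 0.137 in voom, 0.118 with weights, 0.2 with filterByExpr, 0.752 with 4 group means, 0.659 with library quads (sets of 4 libraries, 1 of each group), 0.137 with the random effect, 0.007 without mice 9 and 13, 0.165 in ketamine mice only and -0.001 without mice 9, 11 and 13. Inflammation genes moved to 0.074 with filterByExpr, 0.068 in ketamine mice only, 0.073 without mice 9, 11 and 13 and 0.034 with the covariates. Ependymal markers moved to 0.119 with weights, 0.05 with filterByExpr and 0.076 without mice 9, 11 and 13. Neurogenesis genes moved to 0.03 in saline mice only, 0.024 without mouse 11 and 0.02 without mice 9, 11 and 13. A median counted as moved where its shift reached the within-group standard deviation of the list's mean log2 level. Among smaller shifts, the covariates gave -0.155 for myelin, 0.056 for striatal and amygdala, -0.004 for immediate early and 0.033 for interferon-stimulated genes. Glucocorticoid-induced genes had 0.001 in saline mice only.

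Of 95 genes, 86 had no change of sign in any of the 16 alternatives. Ttr turned to -0.046 without mice 9 and 13 and -0.135 without mice 9, 11 and 13. In saline mice only, Nr3c1 turned to 0.043, Nr3c2 to 0.01, Gfap to -0.03 and Dcx to -0.034. In ketamine mice only, Fos turned to -0.035 and Npas4 to -0.064. With the covariates, Npas4 turned to -0.191, Crh to -0.179 and Dcx to -0.046. Syn1 turned to 0.009 without mouse 11 and 0.012 without mice 9, 11 and 13, Nr3c2 to 0.021 and Dcx to -0.015 without these 3 mice, and Dcx to -0.009 in voom and -0.011 with the random effect. The cause was not tested.

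Groups within vHipp share no mouse numbers, so the mouse could be a block only across regions. The labels used here name neither SB nor social rank, so runs of mouse numbers stood in for the SB. Leaving out mice 9, 11 and 13 lowered the counts of glial and vascular markers.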
